A study of Mus musculus with 4 samples.

Results

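The larger of the deposited splicing tables lists 262 single cassette exons of 80 nt or less, in 243 genes. They were taken from 741 cassette exons and 1223 splicing events of all types by event type and by length, the end minus the start, and not by how much they changed. The table compares testes of wild type (WT) mice with testes of mice labelled Ptbp2-deficient (cKO, conditional knockout), all males of the C57BL/6 strain at postnatal day 25. RNA was sequenced from 2 mice per genotype, with 1 library per mouse. The labels do not name the Cre driver or the deleted exon of the conditional allele.

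A cassette exon is an internal exon that is either included in the mature mRNA or skipped as a whole. Very short cassette exons, often called microexons, are recognised inefficiently by the spliceosome and depend on nearby regulatory sequences, and in neurons many of them add a few amino acids to proteins of membrane traffic and the cytoskeleton. PTBP2, the protein encoded by Ptbp2, binds pyrimidine-rich RNA and often represses exons that lie next to its binding sites. An exon whose length is divisible by 3 can be added or skipped without shifting the reading frame, whereas any other length shifts it when the exon is coding.

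The measurement is ΔPSI, the difference between genotypes in the percentage of transcripts that include the exon, in percentage points. The authors deposited 1 ΔPSI per event, with no value per library, read depth or p-value, so no replicate error or test can be given for any ΔPSI below and the order of the values is not tested. The file does not say which genotype was subtracted, so a negative ΔPSI cannot be read here as more or as less inclusion in the cKO. Testes were sequenced whole. All 12 listed round and elongating spermatid markers were in the expression table, and their RPKM (reads scaled by gene length and library size) summed to 1428 in WT 1, 2017 in WT 2, 161 in the library labelled cKO 1 and 34.1 in that labelled cKO 2. The table also held 2 of 6 spermatocyte markers and 1 of 6 myoid markers, all lower in the libraries labelled cKO, and 3 of 6 macrophage, 1 of 6 Sertoli and 1 of 6 Leydig markers, all higher, but 0 of 6 spermatogonia markers. What this shift in markers contributes to a ΔPSI was not tested, and a change of splicing within cells cannot be told apart from a change in the mix of cells.

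The sequences below are examples of coding exons at both signs of ΔPSI, with the related pairs Ap1b1 and Ap2b1 and Mark2 and Mark3, as they appear in the mature mRNA. Other coding exons of similar length or change are not shown. Capitals mark the cassette exon, and the lower case letters are the last 18 bases of the exon before it and the first 18 of the exon after it, 5′ to 3′ on the strand of the gene. They were read from GENCODE release M21 transcripts, annotated on mm10, for exons that are the only exon of that length in the gene, and were chosen after the values were seen.
Erc1: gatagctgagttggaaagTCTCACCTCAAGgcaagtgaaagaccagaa
Plec: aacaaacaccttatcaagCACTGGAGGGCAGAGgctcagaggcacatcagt
Ap1b1: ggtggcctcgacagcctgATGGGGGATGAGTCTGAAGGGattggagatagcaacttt
Ap2b1: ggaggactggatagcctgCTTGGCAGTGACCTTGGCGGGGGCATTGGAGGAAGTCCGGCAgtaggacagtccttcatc
Mark2: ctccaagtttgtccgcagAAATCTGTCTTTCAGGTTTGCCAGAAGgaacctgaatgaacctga
Mark3: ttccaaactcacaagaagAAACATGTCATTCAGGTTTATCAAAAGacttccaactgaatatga
Snx14: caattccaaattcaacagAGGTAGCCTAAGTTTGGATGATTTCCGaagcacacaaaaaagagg
Tpd52l2: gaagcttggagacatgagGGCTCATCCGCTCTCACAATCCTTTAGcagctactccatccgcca
Heatr7a: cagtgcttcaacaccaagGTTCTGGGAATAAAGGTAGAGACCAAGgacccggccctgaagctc
Ehbp1l1: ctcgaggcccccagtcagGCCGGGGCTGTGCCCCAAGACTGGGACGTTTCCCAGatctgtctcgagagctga
Slc25a25: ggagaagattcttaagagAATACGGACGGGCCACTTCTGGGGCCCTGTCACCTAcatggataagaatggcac

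The shorter the exon, the more often its ΔPSI was negative. Of the 40 exons of 27 nt or less, 35 had a negative and 5 a positive ΔPSI, which is 87.5% negative. Among the 62 exons of 28 to 50 nt, 39 were negative and 22 positive (63.9% of the nonzero values), and among the 160 exons of 51 to 80 nt 84 were negative and 73 positive (53.5%). The background share of negative values was 53.0% over all nonzero cassette exons and 60.8% over all nonzero events. Cassette exons longer than 80 nt were negative in 227 and positive in 241 cases (48.5% negative). Above 80 nt the share did not fall steadily with length. It was 53.0% at 81 to 120 nt, 42.2% at 121 to 200 nt and 51.9% over 200 nt. Exons are not replicates of a genotype, so these shares are given as descriptions without a test.

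**Figure D1:**
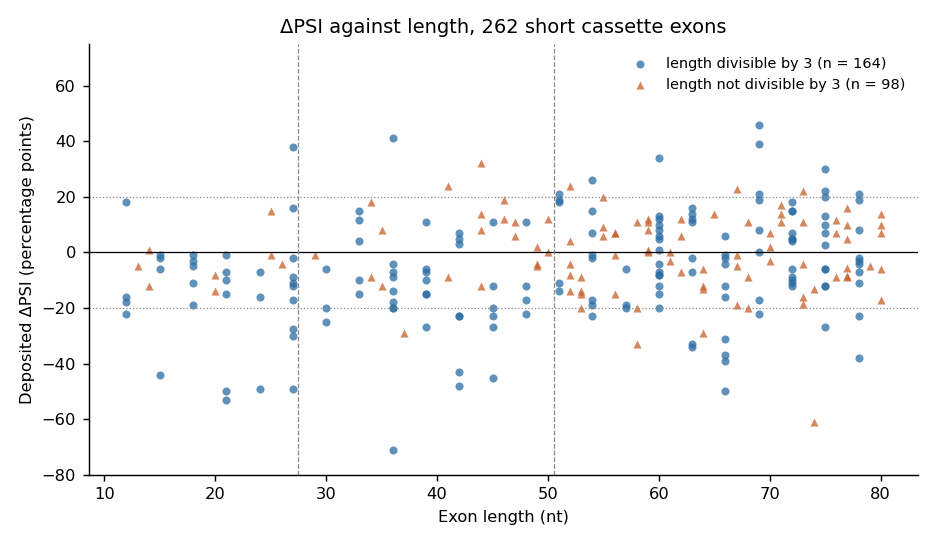
Deposited ΔPSI in percentage points (vertical axis) against exon length in nt (horizontal axis) for the 262 short cassette exons, 1 point each. Circles are the 164 exons with a length divisible by 3 and triangles the other 98, dashed lines part the length classes, and dotted lines mark 20 points in either direction. Of the 40 exons on the far left, 35 lie below 0.

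Size did not follow length in the same way. A ΔPSI of at least 20 points in either direction, the cutoff of the second deposited splicing table, was listed for 61 of the 262 short exons (23.3%), against 22.3% of all cassette exons, 21.7% of the longer ones and 21.0% of all events. The share was 22.5% (9 exons) at 27 nt or less, 30.6% (19 exons) at 28 to 50 nt and 20.6% (33 exons) at 51 to 80 nt. The median absolute ΔPSI was 12 points at 27 nt or less and at 28 to 50 nt, and 11 points both at 51 to 80 nt and over 80 nt. Of the 61 large changes 43 were negative and 18 positive (70.5% negative). Of the 257 large changes over all events 163 were negative and 94 positive, which is 13.3% and 7.69% of all events. All 61 are listed in the second deposited table as well, which holds 257 events and is no independent measurement.

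Frame-keeping lengths were more frequent among the shorter exons. A length divisible by 3 was found in 32 of 40 exons of 27 nt or less (80%), in 41 of 62 of 28 to 50 nt (66.1%), in 91 of 160 of 51 to 80 nt (56.9%), and in 249 of the 479 longer cassette exons (52.0%). The large changes lay mostly in frame-keeping exons. Of the 164 short exons that keep the frame, 48 (29.3%) reached 20 points, 36 of them negative and 12 positive. Of the 98 that do not, 13 (13.3%) did, with 7 negative and 6 positive. At 28 to 50 nt the sign also parted with the frame: 31 of 41 frame-keeping exons were negative, against 8 of 20 nonzero exons of other lengths. At 51 to 80 nt this was not seen, with 54.4% and 52.2% negative. The longer cassette exons also reached 20 points more often where they keep the frame (26.5% against 16.5%).

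**Figure D2:**
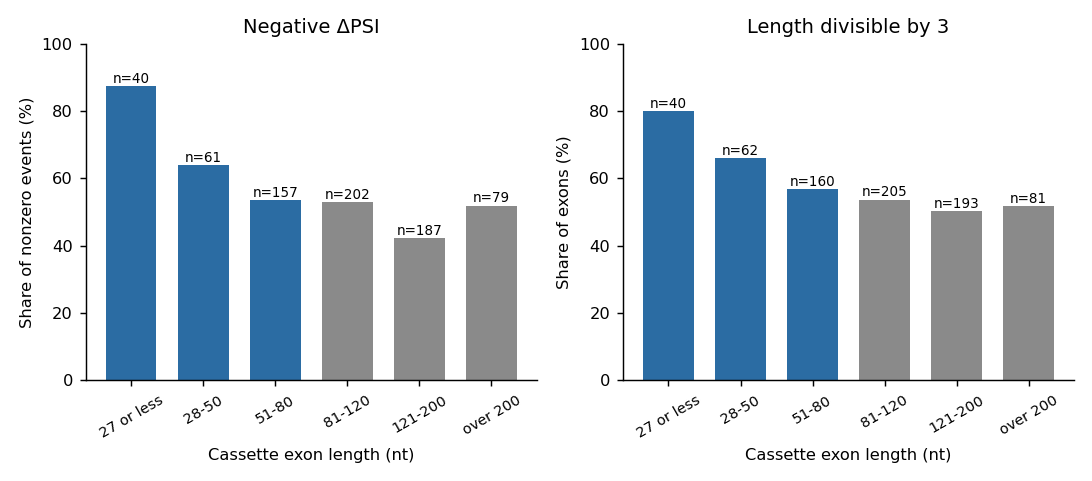
Left, the percent of nonzero events with a negative ΔPSI, and right, the percent of exons with a length divisible by 3, by length class in nt on the horizontal axis. Blue bars are the short exons, grey bars the longer cassette exons, and n is the number of exons behind each bar. The left bars go from 87.5% at 27 nt or less to 53.5% at 51 to 80 nt, and the right bars from 80% to 56.9%.

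Of the 262 short exons, 231 could be tied to 1 annotated exon of their gene by length and strand. Of these 160 (69.3%) are wholly coding in at least 1 transcript, against 50.6% of the matched longer cassette exons. A further 28 lie in untranslated parts, 17 are partly coding, 13 occur in transcripts annotated as targets of nonsense-mediated decay (NMD, the breakdown of mRNAs with an early stop codon), 3 are coding within such a transcript, and 10 occur in noncoding transcripts. The coding share was 77.1% at 27 nt or less, 69.6% at 28 to 50 nt and 67.1% at 51 to 80 nt. Among the coding exons 119 of 160 keep the frame (74.4%), and at 27 nt or less 25 of 27 do. The 119 start on a codon boundary in 53 cases and at the other codon positions in 21 and 45. The untranslated exons had 13 negative and 15 positive values, and only 1 of the 28 (3.57%), a 64-nt exon of Inca1 at -29 points, reached 20 points. Of the matched longer cassette exons in untranslated parts, 14 of 61 (23.0%) did. Inca1, and Cep63 and Ccdc163 below, were named after their values were seen. Of the 31 unmatched short exons, 16 have several annotated exons of the same length, 12 have none, and 3 were shifted in position unlike their neighbours.

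Of the 40 exons of 27 nt or less, 9 reached 20 points, in genes of varied function. Dctn1, the largest subunit of dynactin, which links the motor dynein to its cargo, had a 21-nt exon at -53 points (mm9 chr6:83137758-83137778, plus strand). The gene has several annotated exons of 21 nt, so its sequence is not shown. Ap1b1, the beta subunit of the clathrin adaptor AP-1 that sorts cargo at the Golgi and endosomes, had a coding 21-nt exon at -50 points (mm9 chr11:4933245-4933265, plus strand). Snx14, a sorting nexin, had a coding 27-nt exon at -49 points (mm9 chr9:88295561-88295587, minus strand). A 24-nt exon of Fhod1, a formin that acts on actin filaments, had -49 points (mm9 chr8:107860137-107860160, minus strand). It matches an exon of a noncoding transcript. Plec, which encodes the linker protein plectin of intermediate filaments, had -44 points for a coding 15-nt exon (mm9 chr15:76024989-76025003, minus strand). All of these lengths keep the frame.

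Below these came a 27-nt exon of Tpd52l2, a member of the tumour protein D52 family, at -30 points (mm9 chr2:181245209-181245235, plus strand). The paralogous kinases Mark2 and Mark3, which act on microtubule-associated proteins and cell polarity, each had a 27-nt exon, at -27.5 and -12 points. These exons hold 21 identical bases of 27, and in both genes they are exon 16 of 18 in the transcript used. The 12-nt exon of Erc1, a scaffold of vesicle docking sites, was at -22 points (mm9 chr6:119684099-119684110, minus strand). The scission GTPase gene Dnm2 had 12 nt at -16 points, the lysosomal membrane protein gene Sidt2 12 nt at -18 points, and the Mediator subunit gene Med23 18 nt at -19 points. Between -17 and -10 points lay Ptpra (a receptor tyrosine phosphatase, -17), Mars (the methionyl-tRNA synthetase, -16), Exoc1 (an exocyst subunit, -15), Bak1 (a pro-apoptotic Bcl-2 family member, -14), Ccnl2 (a cyclin linked to splicing, -12), Plekha5 (-11), the polyadenylation factor gene Fip1l1 (-11) and the dystrobrevin gene Dtnb (-10).

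The other negative values at 27 nt or less were under 10 points. Prom1 had -9 points, the 20-nt and 18-nt exons of the ribosomal protein gene Rps24 had -8 and -3 points, and AI848100 and the centrosomal gene Cspp1 had -7 points each. The spectrin gene Spna2 stood at -6 points, Arl6 and the focal adhesion kinase gene Ptk2 at -5 points and the mitochondrial ribosome gene Mrpl24 at -4 points. Ergic3 and the calcineurin subunit gene Ppp3cc were at -2 points, and Bbs9, Mapkbp1, BC051142 and March7 at -1 point. Rps24 has processed copies elsewhere in the genome, and whether they share reads was not checked.

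Only 5 of these exons were positive. Heatr7a, a gene with HEAT repeats, had a coding 27-nt exon at 38 points (mm9 chr15:76262802-76262828, plus strand). Atp2c1, a Golgi pump for calcium and manganese, had 12 nt at 18 points. Ctage5, which acts in export from the endoplasmic reticulum, had 27 nt at 16 points. The 25-nt exon of the deubiquitinase family gene Usp53, in its untranslated part, was at 15 points, and a 14-nt exon of Ccnl1 was at 1 point. The cyclin L genes Ccnl1 and Ccnl2 thus had exons of equal length with values of opposite sign. Of the 8 exons in this class that do not keep the frame, none reached 20 points, and their values ran from -14 for Bak1 to 15 for Usp53.

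**Figure D3:**
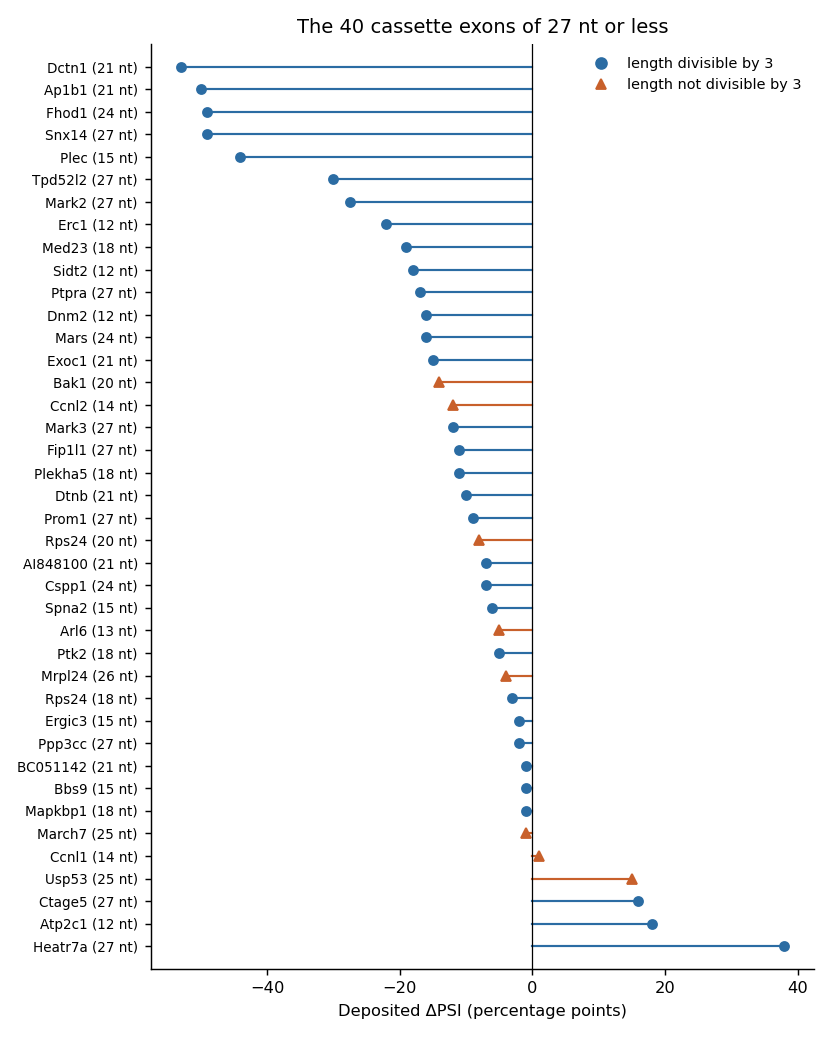
Deposited ΔPSI in percentage points (horizontal axis) for each of the 40 cassette exons of 27 nt or less, named by gene and length (vertical axis). Blue circles keep the reading frame by length and orange triangles do not. The values run from -53 for Dctn1 to 38 for Heatr7a, and the 9 exons that reach 20 points are all circles.

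At 28 to 50 nt the most negative value of all short exons was found. Ehbp1l1, an EH domain-binding protein of endosomal membrane transport, had a coding 36-nt exon at -71 points (mm9 chr19:5720972-5721007, minus strand). Dpf2, a subunit of BAF chromatin remodelling complexes, had 42 nt at -48 points, and Mllt4, which encodes the junction protein afadin, 45 nt at -45 points. Ap2b1, the beta subunit of the endocytic clathrin adaptor AP-2, had a coding 42-nt exon at -43 points (mm9 chr11:83178297-83178338, plus strand). Of the 18 coding bases before it 14 are identical to those before the 21-nt exon of Ap1b1, so both exons follow a similar stretch of the related beta subunits. Slc25a25, a mitochondrial carrier of ATP-Mg and phosphate, was the largest positive value of the class with 41 points (36 nt, mm9 chr2:32276176-32276211, minus strand).

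The next values in that class were 32 points for a 44-nt exon of the testis gene 1700057K13Rik, -29 for a 37-nt exon of the ATPase gene Spata5, -27 for a 39-nt exon of the RNA-binding protein gene Elavl2, -27 for a 45-nt exon of Smc5, of the chromosome-maintaining SMC5/6 complex, and -25 for a 30-nt exon of the calcineurin catalytic subunit Ppp3ca. Of the 19 exons at 20 points or more in this class, 16 were negative and 3 positive, and 16 keep the frame. The other 43 exons ran from -18 to 19 points, with 23 negative, 19 positive and 1 at 0. They include the 34-nt exon of Ptbp2 itself, at -9 points, whose length shifts the frame.

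At 51 to 80 nt the gene of the Pumilio RNA-binding protein Pum2 had the largest change, with 74 nt at -61 points (mm9 chr12:8706955-8707028, plus strand). The length of this exon shifts the frame, and it matches an exon of a transcript annotated as an NMD target. Ap2a1, the alpha subunit of AP-2, had a coding 66-nt exon at -50 points (mm9 chr7:52158832-52158897, minus strand). The 3 clathrin adaptor subunits with a short exon thus lay at -50, -50 and -43 points. Arfgef2, an exchange factor for ARF GTPases at the Golgi, was the most positive of all short exons with 46 points for 69 nt. The kinase gene Camk2g, with 69 nt at 39 points, was the next among the positive values of its class.

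Further negative values were those of the annexin gene Anxa7 (66 nt, -39 points), Kansl3 of a histone acetyltransferase complex (78 nt, -38 points), the Rab GTPase-activating protein gene Tbc1d5 (66 nt, -37 points), the Rab3 exchange factor gene Madd (63 nt, -34 points) and Epb4.1 of the spectrin-actin membrane skeleton (63 nt, -33 points). Of the 33 exons at 20 points or more, 19 were negative and 14 positive, and 23 keep the frame. The other 127 exons had 65 negative, 59 positive and 3 zero values, from -19 to 19 points. Just inside the limit, the 6 exons of 79 and 80 nt had -5 (Eif4e2), 10 (Mtmr3), -17 (Pla2g6), 7 (Snrnp70), -6 (Son) and 14 points (Zscan21). Just outside it, the 13 exons of 81 and 82 nt ran from -34 (Smap1) to 32 points (Postn and Reep6). Between these lay Cdc23 (-18), D11Wsu47e (-14), Mrpl30, Oxr1 and 4933427D14Rik (-11 each), both exons of Paip2 (-2 each), Fxr1 (4), Casc1 (14) and Gtf2ird1 (18.5 points).

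**Figure D4:**
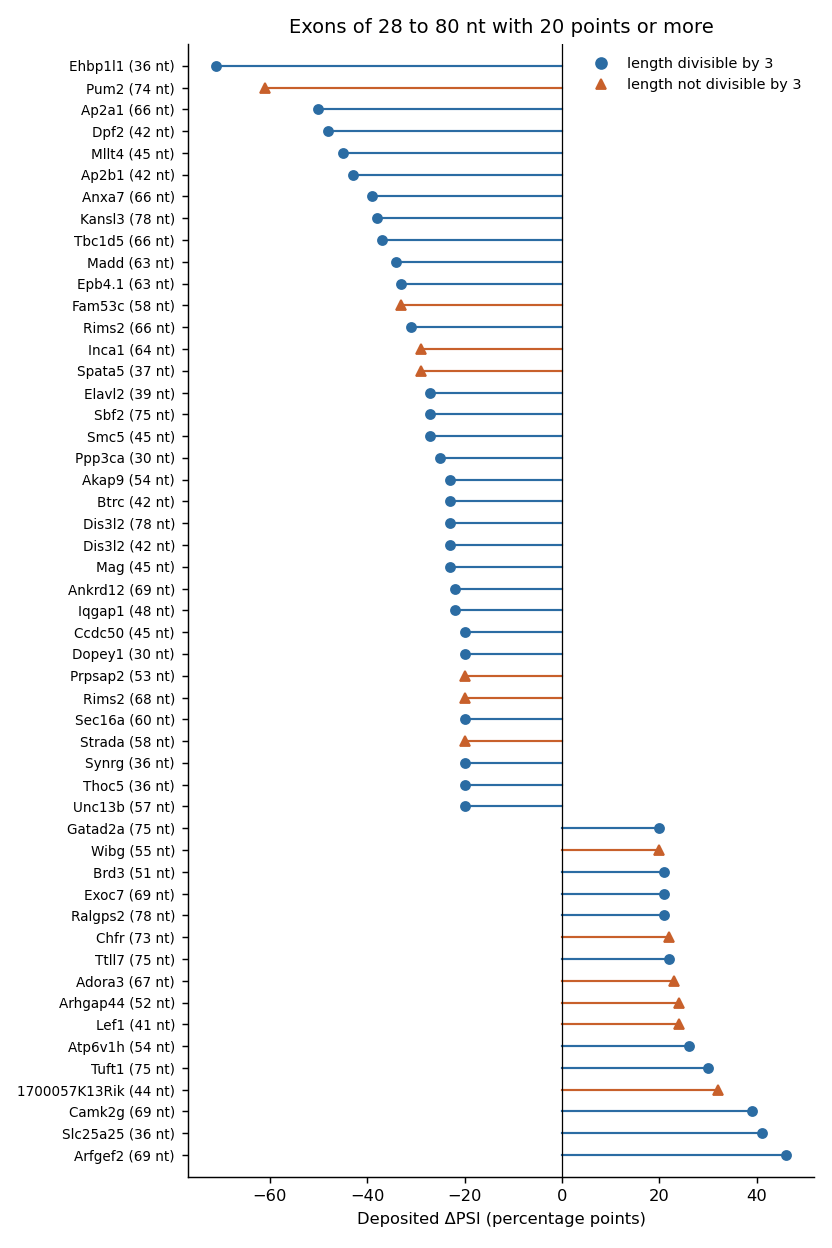
Deposited ΔPSI in percentage points (horizontal axis) for exons of 28 to 80 nt with at least 20 points in either direction, named by gene and length (vertical axis). Blue circles keep the reading frame by length and orange triangles do not. The values run from -71 for Ehbp1l1 to 46 for Arfgef2.

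Grouped by function, membrane traffic genes held the most short exons of any list. Of 84 genes in that list 16 had a short exon, with 18 exons in all, 15 negative and 3 positive. The median was -15.5 points, against -4.5 points over all 262 short exons, 17 of the 18 keep the frame, and 9 reached 20 points, with 7 negative. These 9 are the exons of Ehbp1l1, Ap1b1, Ap2a1, Snx14, Ap2b1 and Arfgef2 given above, the COPII vesicle scaffold gene Sec16a (60 nt, -20 points), the vesicle priming gene Unc13b (57 nt, -20 points) and the exocyst gene Exoc7 (69 nt, 21 points). The list's genes are 6.58% of the genes with a short exon and 2.49% of those with a longer cassette exon. The list is incomplete, so its split of signs and its median describe only its own genes. It lacks Exoc2 (59 nt, 11 points) and Ctage5 (15 and 16 points), and also Synrg (36 nt, -20 points) and Rims2 (-20 and -31 points). Exoc2 and Synrg were named after their values were seen.

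The list headed actin cytoskeleton had 9 short exons in 8 of 69 genes, with a median of -6 points. All 9 were negative, against 61.2% of all nonzero short exons, and all have a frame-keeping length. They include that of Esyt2 (63 nt, -2 points), which matches an NMD transcript and whose gene's role in actin was not checked. Within the list only the exon of Epb4.1 (-33 points) reached 20 points. The list is incomplete, so its split of signs describes only its own genes. It does not hold Fhod1 (-49 points), Iqgap1 (-22 points) and Anln (54 nt, 7 points), which also act on actin. Anln was named after its value was seen. Of 41 microtubule and motor genes 6 had 1 short exon each, 5 negative and 1 positive (Cep63, 33 nt, 11.5 points), and Dctn1 and Mark2 reached 20 points. The microtubule list is incomplete as well, so its split of signs describes only its own genes. Among others it lacks Ttll7 (22 points), Eml4 (15 points) and Prc1 (7 points), and also Ndel1 (-12 points) and Kifap3 (-2 points). Eml4, Prc1 and Ndel1 were named after their values were seen. Of 66 junction and polarity genes 4 had a short exon, 4 of their 5 exons negative, and the most negative was that of Mllt4 (-45 points).

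Of 56 regulators of small GTPases 5 had a short exon, 2 negative (Tbc1d5 and Madd) and 3 positive, among them Arhgap44 (52 nt, 24 points) and Ralgps2 (78 nt, 21 points). Of 77 RNA-binding and splicing genes 7 had one, 5 negative and 2 positive, with Pum2 and Elavl2 past 20 points and 2 of the 7 keeping the frame. The RNA-binding list is incomplete, so these counts describe only its own genes. Among others it lacks the frame-keeping exons of Dis3l2 (-23 points each), Thoc5 (36 nt, -20 points), Fip1l1 (-11 points) and Hnrnpf (8 and -6 points). It also lacks that of Msi2 (73 nt, 11 points), which shifts the frame. Thoc5 and Msi2 were named after their values were seen. Of 66 listed chromatin and transcription genes 3 had one, and none of their 4 exons reached 20 points. That list is incomplete: it lacks Dpf2 (-48 points) and Kansl3 (-38 points), and also Lef1 (24 points), Brd3 (21 points) and Gatad2a (20 points). Lef1, Brd3 and Gatad2a were named after their values were seen. No gene of the 24 in the mitochondrial list had a short exon, but the list lacks mitochondrial genes that did, among them Slc25a25 (41 points) and Mrpl24 (-4 points), so nothing is read from that count. Of 75 genes known for neural microexons 12 had 13 short exons, 11 negative and 2 positive, with Dctn1, Snx14, Madd and Unc13b at 20 points or more. Not all 13 are microexons: those of Unc13b, Kdm1a, Enah, Madd, Rapgef6 and Lrrfip2 have 57 to 72 nt. Whether any of the 13 is the neural microexon known for its gene was not tested. Of 39 genes with known PTB-regulated exons 6 had 8 short exons, 7 negative and 1 positive, with Camk2g and Unc13b at 20 points or more. Whether any of the 8 is the PTB-regulated exon known for its gene was not tested. Over all short exons 61.2% of the nonzero values were negative, and 23.3% of the 262 exons reached 20 points. These lists were compiled with earlier results of the same data known, do not hold every gene of a function, and their counts carry no test.

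A pair of short exons was listed in 19 genes. In 9 of these genes both were negative, in 3 both positive, in 6 they were opposite and in 1 gene 1 exon was at 0. In Plec the 15-nt exon was at -44 points and a 36-nt exon, 557 nt away, at -7 points. In Camk2g the values parted, with 39 points for 69 nt and -15 points for 33 nt, as they did in Ccdc50 (12 points for 46 nt and -20 points for 45 nt). Both exons of the ribonuclease gene Dis3l2 were at -23 points (42 and 78 nt), and those of Rims2 were at -20 (68 nt) and -31 points (66 nt). The other pairs of negative values were those of Sec31a (-11 and -15 points), Plekha5 (-11 and -19 points), Pla2g6 (-1 and -17 points), Dnm2 (-6 and -16 points), Spna2 (-7 and -6 points) and Rps24. Both values were positive in Ctage5 (15 and 16 points), Pcbp3 (5 and 7 points) and Ubap2l (5 and 7 points). The other opposite pairs were those of Arl13b (-17 and 11 points), Cdkl3 (-13 and 10 points), Hnrnpf (8 and -6 points) and Mllt10 (-14 and 8 points), all under 20 points, and Adam3 had 5 points and 0.

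Many short exons were not the only event at their place. Of the 262, 42 overlapped a tandem cassette event of the same table, in which neighbouring exons are included or skipped together, and none of these overlapping events had the opposite sign. Such events share exons and are not separate evidence. A retained intron overlapped 8 short exons. The overlapping intron had a negative value for all 8, but 2 of the 8 are exons of Rps24 with the same intron value of -13 points. For 2 of the exons, of Ccdc163 (34 nt, 18 points) and Ccnl1, the sign was opposite. Over all retained introns of the host genes 12 of 14 were negative, and the share over the whole table was not counted. The host genes had 130 further events in all, 79 negative and 46 positive, and their 42 longer cassette exons were balanced with 20 of each sign.

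Few of the host genes were in the expression table, which holds 988 genes selected by the authors as different between genotypes. It lists 12 of the 243 genes with a short exon. For Ptbp2, the targeted gene, WT 1 had 65.7, WT 2 had 66.6, cKO 1 had 111 and cKO 2 had 98.2 RPKM. Both labelled cKO values lay above both WT values, so no loss of transcript appears in the total, and a value summed over all exons cannot check the label where only some exons are deleted. Its difference in limma on log2(RPKM + 1) was 0.65 ± 0.27 (SE). The limma p, adjusted by Benjamini-Hochberg, was 0.0684, and 0.0696 to 0.257 under the alternatives that keep all 4 libraries. Ptbp2 was the only 1 of the 12 listed as higher. The other 11 were listed as lower, against a background of 93.6% of the table.

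In limma 10 of the 12 fell and 0 rose at an adjusted p under 0.05, against a background of 83.9% lower and 1.92% higher over all 988 genes, so the share of host genes called is that of the table. In the order WT 1, WT 2, then the libraries labelled cKO 1 and cKO 2, the RPKM of 1700057K13Rik went from 44.8 and 54.9 to 5.81 and 0.92. Adora3, an adenosine receptor gene with a 67-nt exon at 23 points, went from 14.4 and 18.1 RPKM to 2.36 and 0.43 RPKM. 1700029G01Rik, with a 58-nt exon at 11 points, went from 57.5 and 64.4 RPKM to 13.1 and 4.15 RPKM. In all 3 the library labelled cKO 2 was the lowest. The genotypes did not overlap in these 3 genes, but the authors selected the whole table as different on the same libraries. The limma differences were -3.81 ± 0.67, -2.97 ± 0.50 and -2.86 ± 0.55 (SE) on the log2(RPKM + 1) scale. Each had a limma adjusted p of 0.0177, at most 0.0333 under the alternatives that keep all 4 libraries. A fold change on that scale is too small for low RPKM.

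Ttll7, a tubulin glutamylase gene with a 75-nt exon at 22 points, went from 15.6 and 16.4 RPKM to 5.20 and 2.22 RPKM, a difference of -1.93 ± 0.41 (SE; limma adjusted p = 0.0177). Prom1, a membrane glycoprotein gene with the 27-nt exon at -9 points, went from 27.3 and 27.7 RPKM to 14.1 and 7.22 RPKM (-1.36 ± 0.39, SE; limma adjusted p = 0.0306). Iqgap1, a scaffold of actin and junctions with a 48-nt exon at -22 points, went from 14.4 and 14.7 RPKM to 7.87 and 8.50 RPKM (-0.76 ± 0.26, SE; limma adjusted p = 0.0469). Under the alternatives that keep all 4 libraries its limma adjusted p ran from 0.0478 to 0.197. Unlike most of the 12, Iqgap1 was no lower in the library labelled cKO 2 than in cKO 1, which also held for Dtnb.

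The kinesin-associated gene Kifap3, and Gm2762, Lrrc51 and Spata6, fell as well, with differences from -0.90 for Spata6 to -1.05 for Kifap3 and exons of -2, 1, 16 and 2 points. Dtnb had 15.5 and 15.9 RPKM in WT against 9.50 and 10.1 RPKM, a difference of -0.63 ± 0.26 (SE), and did not pass in limma (adjusted p = 0.0706). With 1 library left out, 1 genotype has a single library and the spread comes from the other alone, so calls are not given. The difference of 1700057K13Rik, the largest, then ran from -4.72 without cKO 1 to -2.89 without cKO 2. With replicate number as a block 5 of 12 passed, namely 1700057K13Rik, Adora3, 1700029G01Rik, Ttll7 and Prom1. Kifap3 passed with a pseudocount of 0.1, but Gm2762, Iqgap1, Lrrc51 and Spata6 did not (limma adjusted p of 0.0599 to 0.0697). In 10 of the 12 genes the library labelled cKO 2 was lower than cKO 1, as it was for the spermatid markers, whose part in these differences was not tested. The whole table went the same way: over the 925 genes listed as lower, the median RPKM was 6.71 in cKO 1 and 2.59 in cKO 2.

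**Figure D5:**
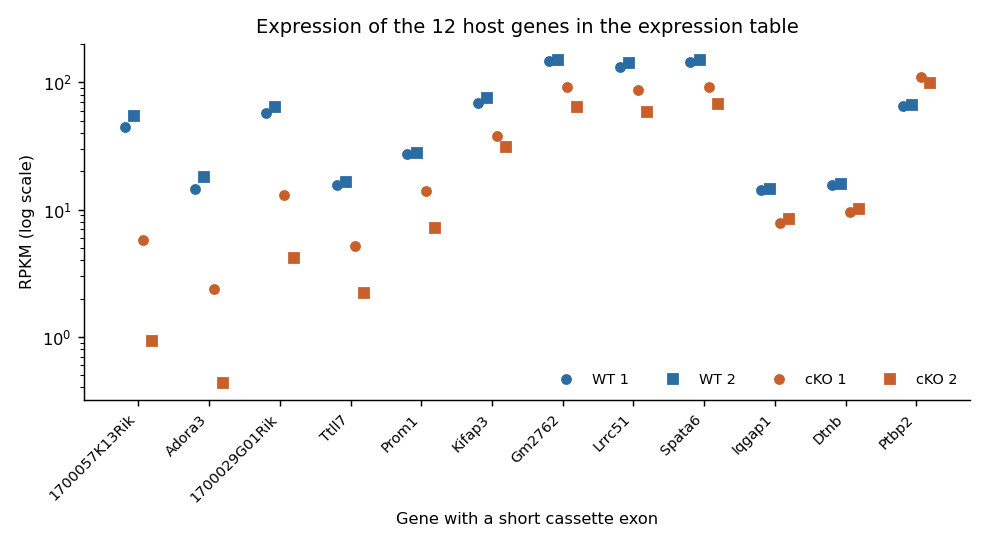
RPKM on a log scale (vertical axis) in each of the 4 libraries for the 12 genes of the expression table with a short cassette exon (horizontal axis), ordered by the authors' log2 fold change. Blue marks are WT and orange marks are the libraries labelled cKO, circles library 1 and squares library 2. The authors selected these genes as different on the same libraries. The genotypes do not overlap in any of the 12, a share that was not counted over all 988 genes. Only Ptbp2 is higher in the libraries labelled cKO.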

How the data were processed

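Poly(A) RNA of whole testes was sequenced as paired-end ScriptSeq libraries, per the labels' protocols, which also name depletion of ribosomal RNA. The sources used here name no aligner, splicing caller or filter. The authors deposited ΔPSI as a score in percentage points, RPKM for each library, a log2 fold change and an adjusted p-value, per the file headers. Read depth is unknown.

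Rows with a blank gene name (308 of 1223, 53 of them short cassette exons) took the name above. Coordinates were taken as mm9, which the submitters' processing notes name beside mm10. Starts count from 0 in the file and from 1 here. Of 741 cassette exons, 705 have the length of an internal GENCODE M21 exon of the gene as end minus start, 78 that of an exon with 1 added, and 18 its mm10 coordinates. An exon was matched where 1 annotated exon had its length and its position shift lay within 100 kb of that of a neighbouring match.

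For expression, log2(RPKM + 1) of 988 genes was fitted in limma (3.58.1, R 4.3.3), with Benjamini-Hochberg adjustment at 0.05. Because the authors selected these genes on the same libraries, the test is not independent evidence. The limma fit was tested on simulated data. Counts used Python 3.11.15, numpy 2.4.6, pandas 2.3.3 and scipy 1.17.1, and figures matplotlib 3.10.9.

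Named were all exons of 27 nt or less, the 10 largest changes in each other class, list genes at 20 points or more, genes with 2 short exons, exons at the length limit and host genes with expression values. Members and lists were chosen with earlier results of these data known. Intron motifs were planned and not analysed here, and 1 exon that this rule names is not reported here.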

Additional observations from a re-analysis of the deposited data

How the results depend on the processing

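The share of negative values among the short exons stayed between 59.5% and 62.2% under 5 of 6 alternatives and was 70.5% among exons of 20 points or more, where the share with a length divisible by 3 was 78.7% against 62.6% overall. With 1 added to each length that share was 19.1%, since the added base itself moves lengths out of frame. Counting exons past 10 or 30 points in place of 20 gave 158 and 26. In alternatives added after seeing the data, the negative share at 27 nt or less ran from 83.3% to 92.6%. No intron motif was counted because no genome was used. Of the 12 host genes limma called 10, then 6 with a pseudocount of 0.1 and 5 with the replicate block. Over all genes it called 848, and 353 to 988 with 1 library left out (353 without WT 2 and 388 without WT 1). The replicate numbers were not taken as pairs because they are not said to pair mice. Deviations of same-numbered libraries correlated at -0.33, but with 2 pairs this cannot show whether mice were paired. With crossed pairs, added after seeing the data, limma called 768 genes and 6 host genes. No difference of a host gene changed sign, but none could, since the genotypes do not overlap in any of the 12. Depth limits every ΔPSI to an unknown degree.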
